A study of Mus musculus with 8 samples.

Results

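Prostaglandin synthesis and receptor genes were followed across 8 cultures of mouse tubuloids, which are epithelial structures grown from fragments of kidney tubule. The 10 genes were taken by symbol from a transcript table of 24063 genes, and they were the 2 cyclooxygenases Ptgs1 and Ptgs2, the 3 prostaglandin E synthases Ptges, Ptges2 and Ptges3, the 4 receptors for prostaglandin E2 (Ptger1 to Ptger4, which encode EP1 to EP4) and Hpgd, the enzyme that inactivates the product. All 10 were listed, as 11 transcripts of 33068, and all 10 passed the filter on low counts with 16557 genes in all. A pulse was given to 4 of the cultures (GDNF 6, 12, 17 and 22), as glial cell line-derived neurotrophic factor at 20 ng/ml for 24 h after plating, and not to the other 4 (control 3, 7, 14 and 21), and every culture was collected on day 7, 6 days after the pulse. Each carried the genotype Pkd2fl/fl Pax8rtTA TetOCre mTmG, in which the Pax8 promoter drives the transactivator in renal epithelium, and no doxycycline is named for this experiment. Fragments of whole postnatal kidney (day 7 to 10 in the sample labels, day 4 to 7 in the methods of the study) were grown in Matrigel with growth factors in every group. The comparison asked what a past GDNF pulse left in the RNA, and no source used here says whether the cultures came from different mice, so p-values measure the spread between these cultures.

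Prostaglandins are made from arachidonic acid, which cyclooxygenases convert to an unstable intermediate that dedicated synthases turn into each end product. Prostaglandin E2 is a main product of the kidney, where collecting duct, macula densa and interstitial cells all make it and where it acts on salt and water transport and on blood flow. EP2 and EP4 raise cyclic AMP in the cell, EP3 mostly lowers it and EP1 raises calcium, and Hpgd oxidizes the product after it is taken up.

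For the 2 cyclooxygenases, the inducible E synthase and the degrading enzyme, which show the widest range of patterns below, the 250 bases before the RefSeq transcript start (GRCm38.p6, gene strand, 5′ to 3′) are given so that the values can be read beside their proximal promoters. Capitals mark the GC box GGGCGG or its reverse complement, the one element of those searched that most of these windows hold.
Ptgs1 (chr2:36230176-36230425, plus strand): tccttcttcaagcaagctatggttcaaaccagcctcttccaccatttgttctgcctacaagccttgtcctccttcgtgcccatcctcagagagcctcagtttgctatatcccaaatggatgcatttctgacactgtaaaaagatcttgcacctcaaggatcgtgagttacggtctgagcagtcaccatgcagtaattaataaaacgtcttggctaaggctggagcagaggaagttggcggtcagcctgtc
Ptgs2 (chr1:150099781-150100030, plus strand): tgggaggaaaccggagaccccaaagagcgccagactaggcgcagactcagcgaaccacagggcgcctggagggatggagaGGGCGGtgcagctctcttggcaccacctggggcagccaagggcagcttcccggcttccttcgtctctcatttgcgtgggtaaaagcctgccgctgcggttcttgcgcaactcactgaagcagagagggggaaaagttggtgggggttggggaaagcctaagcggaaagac
Ptges (chr2:30903298-30903547, minus strand): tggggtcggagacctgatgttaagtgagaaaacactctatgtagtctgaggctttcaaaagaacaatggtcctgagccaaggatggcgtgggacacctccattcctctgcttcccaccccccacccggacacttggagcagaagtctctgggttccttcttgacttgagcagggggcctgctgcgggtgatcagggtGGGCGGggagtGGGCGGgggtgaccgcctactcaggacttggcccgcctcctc
Hpgd (chr8:56294302-56294551, plus strand): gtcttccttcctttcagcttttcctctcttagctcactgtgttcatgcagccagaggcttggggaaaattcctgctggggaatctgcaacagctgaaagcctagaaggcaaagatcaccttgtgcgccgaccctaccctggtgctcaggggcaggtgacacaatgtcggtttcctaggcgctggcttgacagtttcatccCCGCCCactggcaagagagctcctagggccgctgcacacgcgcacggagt
The Ptgs1 window holds 48% G and C bases, 5 CpG and no GC box, whereas the Ptgs2 window holds 61.6%, 13 CpG and 1 GC box. Ptges has 2 GC boxes within 53 bases of its start. Among the 9 members with a window in the reference, 6 hold a GC box on either strand, against 32.7% of all 32851 windows of this length. All but the Ptgs1 and Ptger2 windows also lay above the median of 52.4% G and C bases over all windows. The comparison was not adjusted for that content. Neither TATAAA (12.4% of all windows) nor the cyclic AMP response half-site TGACG (17.8%) is found in any of the 9, the E-box CACGTG (6.02%) is found in Ptges2 only, and CCAAT (33.8%) in Ptger2 and Ptger4. These are matches of letters in one window and say nothing of the use of the site. The Ptgs1 and Ptges windows lie inside the gene spans given below. Each is therefore the window of 1 transcript start and not of the outermost start of the gene. The window for Ptger1 was not analysed here.

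Libraries held 72991721 to 97490625 counts summed over transcripts, where reads shared by transcripts can count more than once. With 1 transcript per gene they held 46478959 to 62847247. Levels are given as TPM, a length-corrected share of the library, for the member's most counted transcript, which allows genes to be compared per length but does not correct for a few very abundant RNAs. In TPM the median of 13569 genes stood 0.39 higher on the log2 scale after GDNF, and 78.5% were higher, so TPM differences were read against that shift. Fitted changes are from edgeR on counts with trimmed-mean (TMM) scaling, under which the median gene moved by 0.03, and CPM values below use that scaling. Control 3 stood apart with a scaling factor of 0.790, against 0.963 to 0.982 in the other controls and 1.07 to 1.11 in the GDNF cultures. Markers fixed for the tissue showed epithelium (Cdh1, Epcam, Krt8, Krt18, Pax2 and Pax8 summed) at 338 to 3090 TPM in controls and 827 to 1133 after GDNF. Fibroblast markers summed to 111 to 1030 and 134 to 856 TPM, all 7 being detected, and smooth muscle markers to 313 to 1902 and 321 to 1187 TPM. Collecting duct principal cell markers summed to 7.07 to 31.1 and 11.9 to 89.8 TPM, thick ascending limb and macula densa markers to 0.698 to 3.88 and 1.34 to 5.06, endothelial markers to 9.28 to 30.6 and 12.2 to 31.3, and the 7 listed of 8 macrophage and leukocyte markers to 14.2 to 40.7 and 23.0 to 59.0. No listed marker was at 0 in all cultures. Below 1 TPM in all cultures were 1 principal cell, 2 thick limb and macula densa, 3 endothelial and 2 macrophage and leukocyte markers. Fxyd4 led the principal cell sum at 4.95 to 69.3 TPM, with Aqp2 at most 0.356. Emcn led the endothelial sum at 9.04 to 30.2 TPM, with Pecam1 at most 1.77. Cd14 (8.41 to 34.5 TPM) led the leukocyte sum except in GDNF 17, where Lyz2 was higher. Whether these cell types were present was not tested. The cultures fall into 2 kinds that cross the groups evenly. Control 3 and 7 and GDNF 6 and 12 held Xist RNA (12.5 to 68.0 TPM), with up to 6.46 TPM of 4 Y-linked genes, and the other 4 held those Y-linked genes at 116 to 194 TPM with Xist at or below 0.111.

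Across the 8 cultures the members spanned mean levels from 117 TPM for Ptges3 to 1.43 TPM for Ptger3. Ptges3 led in every culture, followed by Ptgs2 (mean 60.5) and Ptgs1 (28.7), each above the next member in 8 of 8. Ptgs1 was above Ptges2 in 5 of 8 cultures, so these neighbours did not separate, and Ptges2 was above Ptger4 in all 8. Ptger4 was above Ptges in 6 of 8, Ptges above Ptger1 in 5, Ptger1 above Ptger2 in 6 and Ptger2 above Hpgd in 4, so the middle of the order was within the spread. Hpgd was above Ptger3 in all 8. By mean level Ptges3 stood above 94.3% of the genes tested, Ptgs2 above 88.7% and Ptger3 above 21.2%.

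**Figure D1:**
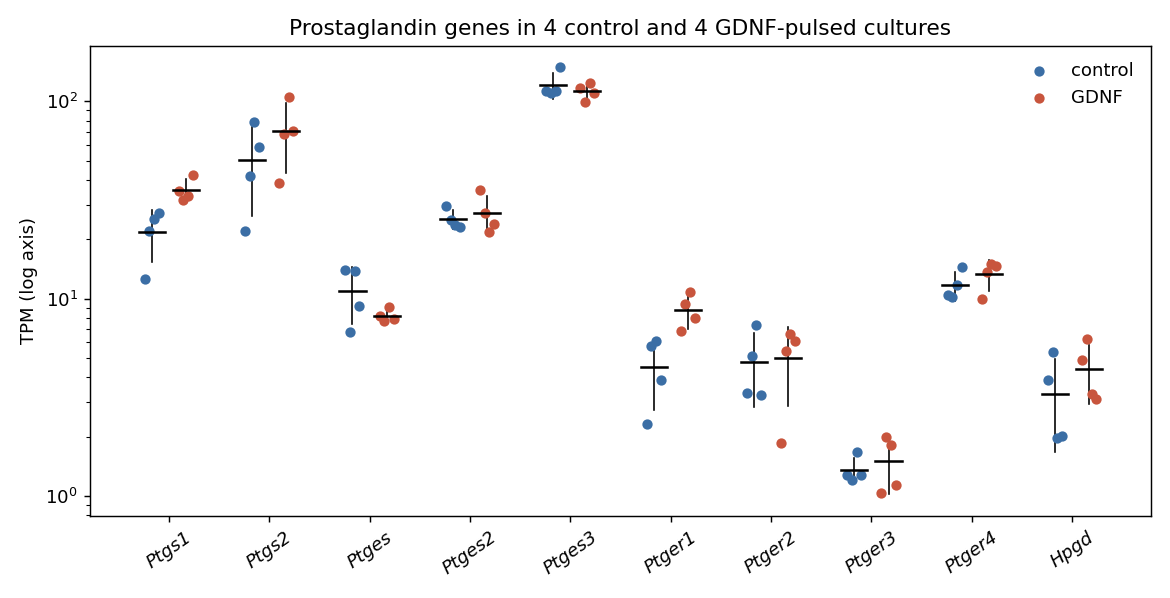
TPM of the 10 members on a log axis, 1 point per culture, in 4 control (blue) and 4 GDNF-pulsed (red) cultures, with the mean as a horizontal bar and the SD as a vertical line. The groups do not overlap for Ptgs1 and Ptger1, and Ptgs2 varies 4.76-fold between its lowest and highest culture.

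After adjustment over all genes edgeR called none of the 10 members, as it called none of the 16557 genes tested (0%), the smallest adjusted p being 0.167. At an unadjusted p of 0.05 or less edgeR passed 3665 genes and 3 of the 10 members. Of these 1, Ptger1, was higher, where 9.25% of all genes were higher at that level, and 2, Ptges and Ptges3, were lower, against 12.9%. DESeq2, the tool of the study, called the same pair lower at an adjusted p of 0.05, beside 7.78% of the 11639 genes it adjusted, and no member higher, beside 1.37%. It gave no adjusted p to Ptger3 and Hpgd, so its calls are 2 of 8 members adjusted. By TPM the exact permutation test passed 2 members as higher, Ptgs1 and Ptger1, where 20.6% of all genes passed in that direction, and none as lower (0.61%). With TMM scaling 3 members had an edgeR log2 change above 0, and 5 had one with library size alone, under which the median gene stood at 0.25. The median over the members was -0.24 with TMM.

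**Figure D2:**
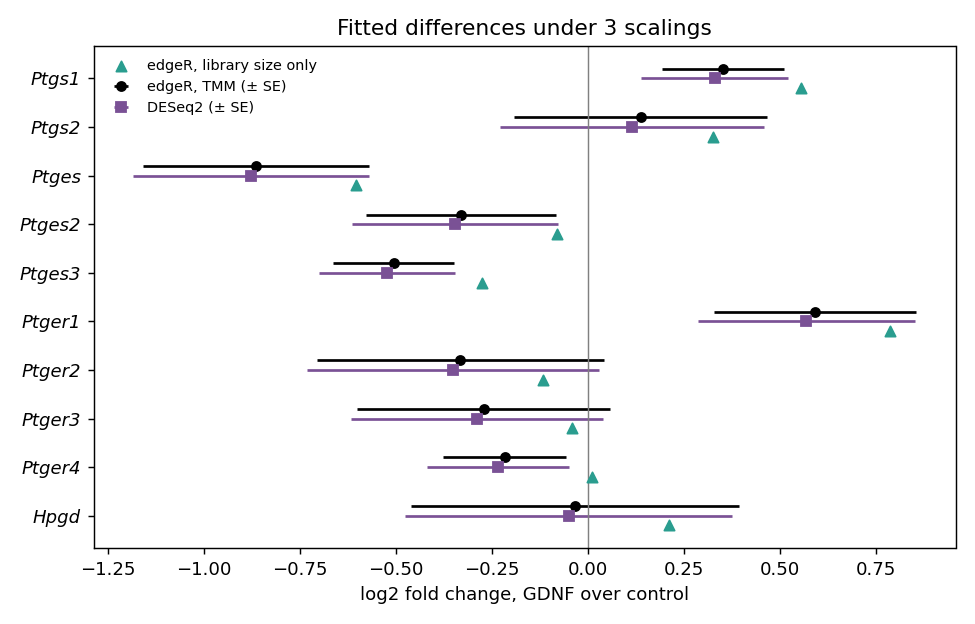
Log2 fold change of each member, GDNF over control, from edgeR with TMM scaling (black, with SE), DESeq2 (purple, with SE) and edgeR with library size only (green). Library size alone moves every member to the right, and Ptges and Ptges3 stay left of 0 in all 3.

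Ptgs1, the constitutive cyclooxygenase (chr2:36216742-36258593), measured 12.6, 21.96, 25.3 and 27.1 TPM in control 3, 7, 14 and 21. In GDNF 6, 12, 17 and 22 it measured 35.2, 31.5, 33.2 and 42.5 TPM. Every pulsed culture was above every control, and control 3 was the lowest of all. The means were 21.7 ± 6.44 and 35.6 ± 4.83 TPM (SD, n = 4), an exact two-sided permutation p of 0.0286, the smallest that 4 against 4 cultures can give. Without GDNF 22 that p was 0.0571. Relative to the median gene the mean TPM was 0.32 higher on the log2 scale. In CPM the groups also did not overlap, as was so for 6.99% of all genes in this direction, but control 14 (45.05) and GDNF 12 (45.24) nearly met. The edgeR log2 change was 0.35 with SE 0.16, unadjusted p 0.0513 and adjusted p 0.228.

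Ptgs2, the inducible cyclooxygenase (chr1:150100031-150108234), was the most abundant of the pair in every culture. Its level was 22.1, 41.7, 78.6 and 59.0 TPM in the controls and 38.5, 68.2, 105 and 70.6 TPM after GDNF, in the same order of cultures. The groups overlapped widely, with GDNF 6 below 3 of the controls. The means were 50.4 ± 24.1 and 70.7 ± 27.4 TPM (SD, n = 4, exact permutation p = 0.314). With edgeR the change was 0.14 with SE 0.33 and adjusted p 0.830, and it turned to -0.05 without control 3 and to -0.13 without GDNF 17. Ptgs2 made up 52.3% to 76.0% of the summed cyclooxygenase TPM, and the log2 ratio of Ptgs2 to Ptgs1 was 1.12 ± 0.37 in controls and 0.91 ± 0.65 after GDNF (exact permutation p = 0.600, 0.857 adjusted over 4 ratios).

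Ptges, the inducible microsomal synthase that works beside Ptgs2 (chr2:30889471-30931020), measured 13.9, 6.77, 13.8 and 9.23 TPM in the controls. After GDNF it measured 8.22, 7.67, 9.10 and 7.87 TPM. The pulsed cultures lay in a narrow band inside the range of the controls, of which control 3 and control 14 were high. The means were 10.9 ± 3.52 and 8.21 ± 0.631 TPM (SD, n = 4, exact permutation p = 0.257), lower by 0.81 on the log2 scale relative to the median gene. On counts the edgeR change was -0.86 with SE 0.29, unadjusted p 0.0151 and adjusted p 0.168. That change was -0.55 without control 3 and -1.06 without control 7, and the exact permutation p in TPM was 0.0286 without control 7. DESeq2 gave an adjusted p of 0.0484. That call was lost without control 14 (adjusted p 0.0927), GDNF 6 (0.0587) or GDNF 17 (0.0869) in DESeq2, and without control 3, GDNF 12 or GDNF 22 it gave Ptges no adjusted p.

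Ptges3, the cytosolic synthase better known as the p23 cochaperone of Hsp90 (chr10:128058982-128077254), was at 113, 110, 114 and 149 TPM in controls. It was at 117, 99.9, 124 and 111 TPM after GDNF, means of 121 ± 18.4 and 113 ± 10.3 (SD, n = 4, exact permutation p = 0.571). In TPM the groups overlapped. In CPM they did not, the controls lying at 134 to 189 and the pulsed cultures at 97.7 to 123, as was so for 6.26% of all genes in this direction. The edgeR change was -0.51 with SE 0.16, unadjusted p 0.00938 and adjusted p 0.167, and DESeq2 gave an adjusted p of 0.0431. With library size alone the edgeR change was -0.28. The DESeq2 call was kept without control 7 (0.0347) or GDNF 6 (0.0438) and lost without any one of the other 6 cultures, with adjusted p between 0.0551 and 0.102. Taken as TPM, Ptges3 was 72.2% to 82.1% of the summed synthase RNA.

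Ptges2, the membrane-associated synthase expressed in most tissues (chr2:32395890-32402740), measured 29.6, 25.1, 23.7 and 23.2 TPM in controls and 35.8, 27.2, 21.7 and 24.0 TPM after GDNF. Its groups overlapped, and the edgeR change was -0.33 with SE 0.25 and adjusted p 0.447. The log2 ratio of Ptges to Ptges2 was -1.26 ± 0.46 in controls and -1.69 ± 0.36 after GDNF (exact permutation p = 0.229, 0.857 adjusted over the 4 ratios).

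Ptger4 was the leading EP receptor RNA in every culture. This receptor, which raises cyclic AMP (chr15:5233399-5244187), measured 10.4, 10.2, 11.7 and 14.4 TPM in controls and 9.91, 13.7, 15.1 and 14.6 TPM after GDNF. It made up 43.7% to 63.1% of the summed EP receptor TPM, 53.2% ± 9.85 in controls and 47.1% ± 3.12 after GDNF (SD, n = 4). The edgeR change was -0.22 with SE 0.16 and adjusted p 0.442. Its 2 transcripts carried nearly equal counts (2139 of 4277 summed counts in control 3), and 1015 of its exon bases overlap a pseudogene on the other strand.

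Ptger1, the calcium-coupled receptor EP1 (chr8:83666644-83672756), measured 2.30, 5.76, 6.07 and 3.87 TPM in the controls. After GDNF it measured 6.83, 9.35, 10.8 and 7.94 TPM. All pulsed cultures lay above all controls in TPM, with means of 4.50 ± 1.76 and 8.72 ± 1.71 (SD, n = 4, exact permutation p = 0.0286), and this was 0.56 higher on the log2 scale relative to the median gene. Without control 3, control 21 or GDNF 17 the permutation p was 0.0571. In CPM the groups overlapped, since GDNF 6 (7.62) and GDNF 22 (7.82) lay below control 14 (7.87), and the edgeR change was 0.59 with SE 0.26, unadjusted p 0.0484 and adjusted p 0.223. The share of Ptger1 in the EP receptor TPM was 13.3% to 25.8% in controls and 26.7% to 34.8% after GDNF. Of its 5459 annotated exon bases, 3875 overlap a protein-coding gene on the other strand. The library kit did not mark strand, so counts of Ptger1 may hold reads of the opposite strand. Its values and its share are uncertain to an extent that was not tested.

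Ptger2, the other receptor that raises cyclic AMP (chr14:44988111-45003820), measured 3.31, 5.15, 7.33 and 3.27 TPM in controls and 1.87, 5.44, 6.63 and 6.13 TPM after GDNF. The groups overlapped over nearly their whole range, with GDNF 6 lowest and control 14 highest, and the edgeR change was -0.33 (SE 0.37, adjusted p 0.620). Ptger3, the receptor that lowers cyclic AMP (chr3:157566821-157644758), was the scarcest member, at 1.28, 1.20, 1.67 and 1.28 TPM in controls and 1.04, 1.99, 1.82 and 1.14 TPM after GDNF. These levels rested on 88 to 202 counts a library, and the groups overlapped (edgeR change -0.27, SE 0.33, adjusted p 0.650). The log2 ratio of Ptger4 to Ptger3 was 3.01 ± 0.27 in controls and 3.10 ± 0.35 after GDNF (exact permutation p = 0.743, 0.857 adjusted over the 4 ratios). Summed EP receptor RNA was 22.3 ± 3.89 TPM in controls and 28.5 ± 6.25 TPM after GDNF. The groups overlapped, at 17.3 to 26.8 TPM in controls and 19.7 to 34.3 TPM after GDNF, and the difference was not tested. In TPM the median gene also stood 0.39 higher on the log2 scale, and the sum includes the uncertain values of Ptger1.

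**Figure D3:**
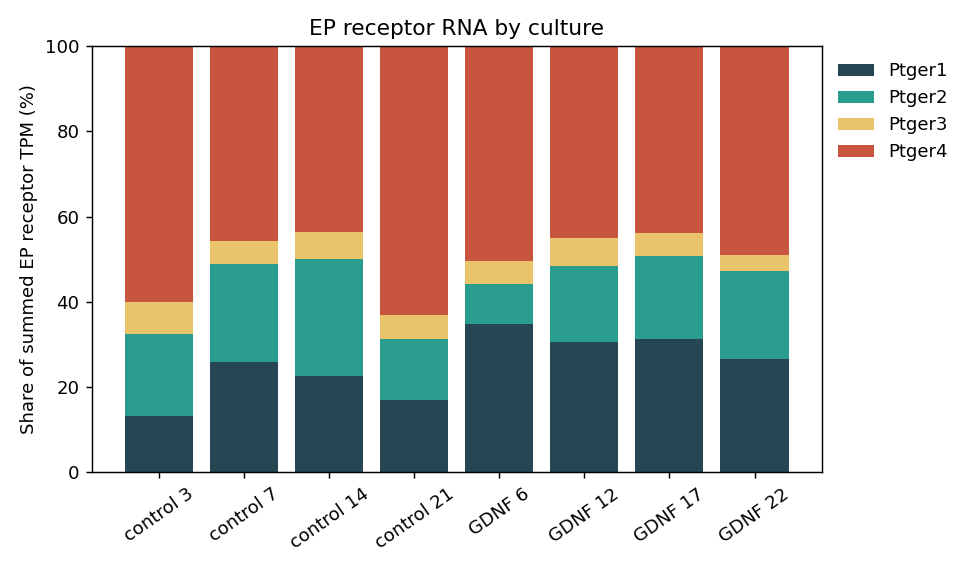
Share of the summed EP receptor TPM, in percent, taken by Ptger1 to Ptger4 in each culture. Ptger4 is the largest share throughout (43.7% to 63.1%) and Ptger3 the smallest (3.83% to 7.41%), and the Ptger1 share is 26.7% to 34.8% in the 4 GDNF cultures and 13.3% to 25.8% in the controls.

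Hpgd, which encodes the dehydrogenase that inactivates prostaglandin E2 (chr8:56294552-56321046), measured 3.89, 5.35, 1.97 and 2.02 TPM in control 3, 7, 14 and 21. In GDNF 6, 12, 17 and 22 it measured 4.91, 6.21, 3.29 and 3.11 TPM. The groups overlapped (3.31 ± 1.63 and 4.38 ± 1.47 TPM, SD, n = 4, exact permutation p = 0.314, and an edgeR change of -0.03, SE 0.43, adjusted p 0.973), while the high and low cultures followed the kind of culture. The 4 cultures with Xist RNA held 3.89 to 6.21 TPM and the 4 with Y-linked RNA 1.97 to 3.29. In a fit with both terms the log2 difference, Xist over Y-linked, was 1.18 with SE 0.23 and unadjusted p 0.000517, but the adjusted p over all genes was 0.0728. At an adjusted p of 0.05 that fit called 0.411% of all genes and no member.

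The same fit put 2 members past an unadjusted p of 0.05 on the side of Xist, Hpgd and Ptges2, where 7.13% of all genes were higher with Xist, and 1, Ptgs2, on the other side, where 5.22% were. Ptges2 lay at 25.1 to 35.8 TPM in the Xist cultures and 21.7 to 24.0 in the others, a log2 difference of 0.55 (SE 0.18, p 0.0143, adjusted p 0.279). Ptgs2 was lower with Xist, 42.6 ± 19.1 against 78.4 ± 19.8 TPM (SD, n = 4), a log2 difference of -0.77 (SE 0.23, p 0.0081, adjusted p 0.230), and its ranges overlapped. Hpgd and Ptges2 did not overlap between the kinds in TPM, as was so for 1.84% of all genes higher with Xist. No member separated in the other direction (3.32%). In CPM the kinds overlapped for Ptges2, since GDNF 12 (26.6) lay below control 14 (28.8), and did not for Hpgd. Within the kinds, an exact permutation that kept them gave 0.0556 for both Ptgs1 and Ptger1, the smallest p its 36 assignments allow. Each was higher after GDNF in both kinds: Ptgs1 by 16.1 and 11.7 TPM, Ptger1 by 4.06 and 4.38. These are TPM differences, and in TPM 78.5% of 13569 genes were higher after GDNF. The share of all genes that reach that p within the kinds was not computed. The kind was read from these RNAs and not from the labels, and what else differed between the cultures was not tested. The log2 ratio of Hpgd to Ptgs2 ran from -5.25 in control 14 to -2.48 in control 3 and was -3.87 ± 1.36 in controls and -3.95 ± 0.92 after GDNF (exact permutation p = 0.857, also 0.857 adjusted over the 4 ratios).

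**Figure D4:**
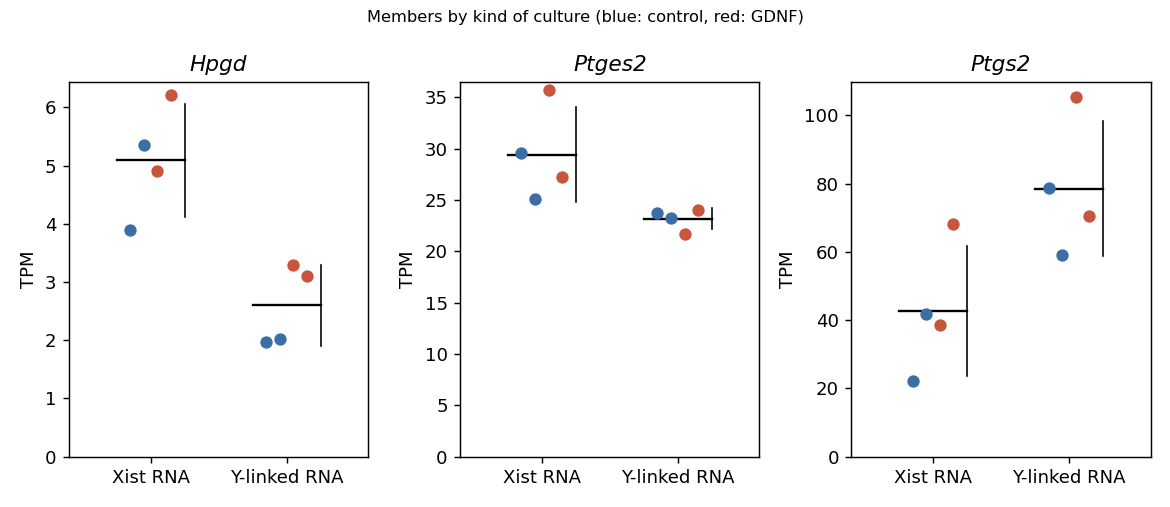
TPM of Hpgd, Ptges2 and Ptgs2 in the 4 cultures with Xist RNA and the 4 with Y-linked RNA, 1 point per culture (blue control, red GDNF), with the mean as a horizontal bar and the SD as a vertical line. In TPM Hpgd and Ptges2 separate by kind and Ptgs2 does not, and in CPM Ptges2 overlaps.

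Members were set beside the 7 marker lists in 70 relations of log2 TPM across the 8 cultures. Of these, 12 had an exact permutation p of 0.05 or less and 3 remained after adjustment over the 70. Ptgs2 followed the fibroblast markers, with Pearson r 0.914 (n = 8 cultures, exact permutation p = 0.000422, adjusted p 0.0148) and Spearman rho 0.929 (exact permutation p = 0.00223, adjusted p 0.0521). It was lowest where those markers summed lowest, at 22.1 TPM in control 3 (fibroblast sum 111) and 38.5 in GDNF 6 (134). The top of both ranges did not match, since Ptgs2 was highest in GDNF 17 (105 TPM, fibroblast sum 856) and the sum was highest in control 14 (1030), where Ptgs2 was at 78.6 TPM. Without the 2 cultures farthest from the median r was 0.794, and without any one culture it stayed within 0.858 to 0.940. On deviations from the means of group and kind it was 0.955. Each of those means is over 2 cultures, so the deviations come in mirrored pairs and are not 8 independent values. In log2 CPM r was 0.938, with an adjusted p of 0.108. With the fibroblast level as a covariate the edgeR change of Ptgs2 after GDNF was 0.0016 with SE 0.15. Another relation was that of Ptger2 with the smooth muscle and mesangium markers, with r 0.903 (exact permutation p = 0.000223, adjusted p 0.0148) and rho 0.929 (exact permutation p = 0.00223, adjusted p 0.0521). Without the 2 farthest cultures its r was 0.861, and in log2 CPM it was 0.712 (adjusted p 0.248). Neither gene followed its list alone. Ptgs2 had r 0.868 with the smooth muscle and mesangium markers (exact permutation p = 0.00454, adjusted p 0.0576) and rho 0.952. Ptger2 had r 0.867 with the fibroblast markers (exact permutation p = 0.00417, adjusted p 0.0576) and rho 0.905. Whether either gene goes with 1 of these 2 lists more than the other was not tested. The last of the 3 relations left after adjustment was that of Hpgd with the thick ascending limb and macula densa markers. Because both split by kind of culture no pooled r is given. Within the cultures with Y-linked RNA alone r was 0.970, and within those with Xist RNA alone it was 0.479. Each of these is over few cultures, control and pulsed together. On the same mirrored deviations from the means of group and kind r was 0.0992. Whether Hpgd follows these markers within a kind was not tested. In these bulk libraries more cells of a type and more RNA per cell cannot be told apart, and the part of fibroblast or smooth muscle cells in the member levels was not tested.

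**Figure D5:**
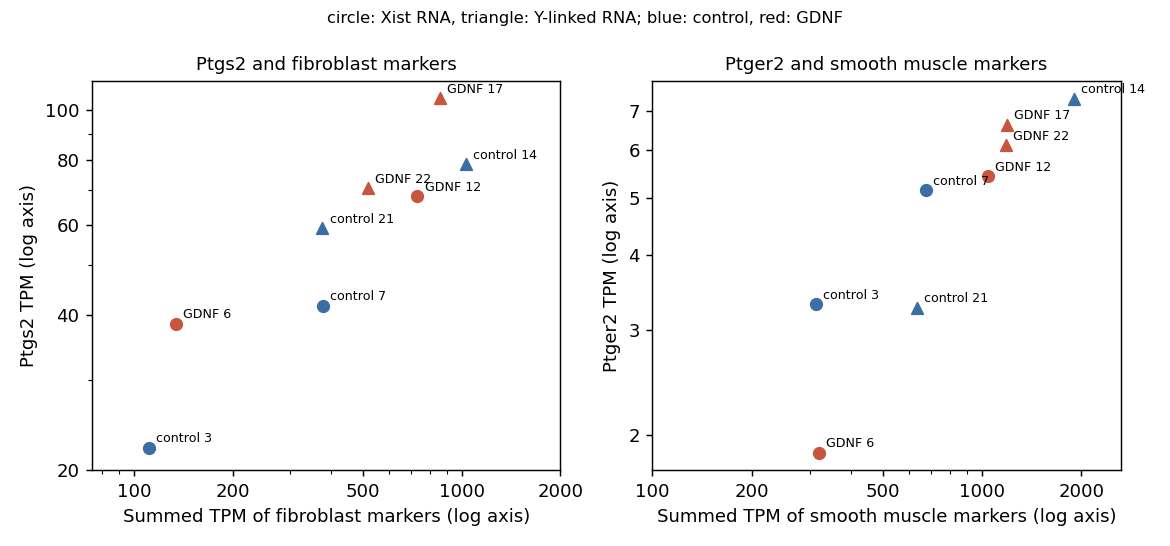
TPM of Ptgs2 against the summed TPM of 7 fibroblast markers (left) and TPM of Ptger2 against the summed TPM of 5 smooth muscle and mesangium markers (right), both axes log, 1 point per culture (blue control, red GDNF, circle Xist RNA, triangle Y-linked RNA). Ptgs2 ranges from 22.1 to 105 TPM and lies lowest where the fibroblast sum is 111 and 134, and Ptger2 is highest where the smooth muscle sum is 1902.

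Among themselves the members formed 45 pairs, of which 5 had an exact permutation p of 0.05 or less on log2 CPM and 0 after adjustment over the pairs (lowest adjusted p 0.251). The strongest was Ptges3 with Ptger1, with r -0.847 (n = 8 cultures, exact permutation p = 0.0101) and rho -0.762 (exact permutation p = 0.0368). It was -0.686 without the 2 farthest cultures and -0.300 in log2 TPM.

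Of 56 further gene symbols fixed for prostanoid and arachidonate metabolism, 55 were listed and 45 tested. EdgeR called 0 of them. At an unadjusted p of 0.05 edgeR passed 2 higher and 6 lower, beside 9.25% and 12.9% of all genes. Their median log2 change was -0.15, and 18 of 45 were above 0 (25 with library size alone). Slco3a1, an organic anion carrier that takes prostaglandins, measured 8.55, 14.99, 12.4 and 15.5 TPM in the controls and 33.5, 21.5, 24.3 and 29.2 TPM after GDNF, which does not overlap. By TPM the exact permutation test passed 20.6% of all genes as higher. In CPM the groups of Slco3a1 also did not overlap, as was so for 6.99% of all genes in this direction. Its edgeR change was 0.71 (SE 0.18, adjusted p 0.167). It was the single gene of the list that DESeq2 called (adjusted p 0.0333), of 19 to which DESeq2 gave an adjusted p. Over all 11639 genes it adjusted, DESeq2 called 1.37% higher and 7.78% lower. Pla2g4b, a phospholipase A2, was the other gene on the higher side (0.80, SE 0.26, adjusted p 0.167).

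On the lower side were Pla2g4a, the cytosolic phospholipase A2 that frees arachidonic acid (edgeR change -0.50, SE 0.17, adjusted p 0.169), and the prostaglandin reductases Ptgr2 (-0.50, SE 0.17, adjusted p 0.169) and Ptgr1 (-0.49, SE 0.20, adjusted p 0.200). With them were Akr1b3 (-0.84, SE 0.31) and Fam213b (-0.66, SE 0.28), reductases that can make prostaglandin F2 alpha, and the carbonyl reductase Cbr1 (-0.78, SE 0.33), with adjusted p of 0.177, 0.205 and 0.212. None of these 6 had a DESeq2 call. Pla2g4a measured 52.5 to 91.7 TPM in controls and 55.9 to 70.2 TPM after GDNF, so its groups overlapped in TPM.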

How the data were processed

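Poly-A RNA of 8 tubuloid cultures was made into SMART-Seq v4 libraries, which do not mark strand, and sequenced as 75 bp read pairs on 2 lanes whose assignment to cultures is not given in the sources used here. The authors aligned reads with STAR to mm10 (GRCm38), and the submitters' processing notes also name featureCounts and DESeq2. Versions and strand settings are not given in the sources used here. The authors deposited, per transcript of each culture, a raw read count, an FPKM value and a TPM value. The deposited FPKM values were not used.

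Transcript counts were added up by symbol, and edgeR 4.0.16 tested the sums (filterByExpr, TMM, quasi-likelihood, Benjamini-Hochberg over 16557 genes). DESeq2 1.42.0 and limma 3.58.1 were alternatives. For TPM, 1 transcript a gene was kept, the one most counted on average, and groups were compared by two-sided exact permutation over 70 assignments, with a pseudocount of 0.1 TPM in ratios and relations. Summing transcripts counts shared reads of Ptger4 more than once. Pairs of libraries shared at most 0.137% identical counts and none was treated as a duplicate. The members, marker lists and pathway list were chosen with earlier results of these data known. All members are named, and of the pathway list every gene called by edgeR or DESeq2 and otherwise the 8 with the smallest edgeR p. The test between kinds of culture, the marker covariate and relations, the promoter motifs and leave-one-out fits of DESeq2 were chosen after seeing the data. Gene positions and promoter windows are from RefSeq, and exon overlaps are from GENCODE M21, both GRCm38. Values of a gene that overlaps a member are not reported here.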

Additional observations from a re-analysis of the deposited data

Results flagged for a closer look

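In all, 28 sets of values from 4 cultures were searched for an isolated value, and 1 was found. Chance gives about 1 in 20 such sets. Ptges3 in the controls measured 149 TPM in control 21, against 110 to 114 TPM in the other 3, and without control 21 its TPM difference after GDNF turned from -8.46 to 0.716.

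In CPM the difference of Hpgd after GDNF had opposite signs in the 2 kinds of culture. Its log2 change after GDNF was -0.22 in the cultures with Xist RNA, where both pulsed cultures were below both controls, and 0.38 in those with Y-linked RNA, where both were above. The interaction of pulse and kind in edgeR was -0.60 with SE 0.46, unadjusted p 0.226 and adjusted p 0.99998, so the difference did not pass the test. In TPM the change was positive in both kinds, by 0.944 and 1.21 TPM.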

How the results depend on the processing

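No paired analysis was possible because the groups share no culture number in the labels. EdgeR called 0 members and 0 genes under every alternative scaling, filter, covariate and left-out culture. Members called were 2 with DESeq2, 2 with DESeq2 at an adjusted p of 0.1, 2 with its filter set for 0.05 and 3 at an unadjusted p of 0.05, beside 1066, 2315, 1253 and 3665 genes. DESeq2 without 1 culture called 0 to 2 members and 1 to 1637 genes, the fewest without GDNF 22. The count of members with a TPM difference was 1 to 3 without 1 culture, the 3 (with Ptges) without control 7. Pairs correlated on deviations from group and kind means numbered 2. Those deviations come in mirrored pairs of cultures, and the permutation treated them as independent, so that count cannot be relied on. Leaving out 1 culture took the log2 ratio of Ptgs2 to Ptgs1 from -0.465 to 0.0464, of Hpgd to Ptgs2 from -0.54 to 0.38 and of Ptger4 to Ptger3 from -0.0634 to 0.22. The log2 change of Ptges was -0.55 with limma-voom and -0.55 to -1.06 without 1 culture in edgeR. That of Hpgd reversed to 0.0701 with limma-voom, 0.21 with library size only, 0.15 with a length trend, 0.0794 with kind of culture and 0.15 with fibroblast level as covariate, that of Ptger4 to 0.0122 with library size only and that of Ptgs2 to -0.0218 with a length trend. Without 1 culture, those of Hpgd and Ptgs2 ran from -0.29 to 0.22 and from -0.15 to 0.42, DESeq2 included. In CPM in place of TPM the differences were -6.90 for Ptges2, -2.42 for Ptger2, -0.31 for Ptger3, -7.15 for Ptger4 and -0.089 for Hpgd. TPM differences without 1 culture ran from -0.286 to 1.301 for Ptger2, -12.2 to 0.716 for Ptges3, -1.05 to 3.63 for Ptges2 and -0.0248 to 0.294 for Ptger3. The causes of these shifts were not tested. Counts of 88 to 202 for Ptger3 and 169 to 549 for Hpgd are the lowest among the members.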

Other observations

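Of the 45 further pathway genes tested, 2 passed the test between the kinds of culture after adjustment over all genes, and both were chosen here after their values were seen. Alox5ap, the activating protein of 5-lipoxygenase, measured 14.9 and 16.98 TPM in control 3 and 7 and 11.4 and 13.3 TPM in GDNF 6 and 12, the cultures with Xist RNA. It measured 4.30 and 3.69 TPM in control 14 and 21 and 3.65 and 4.08 TPM in GDNF 17 and 22. Every Xist culture was above every culture with Y-linked RNA, and the edgeR log2 difference between the kinds was 2.02 (SE 0.23, adjusted p 0.0142 over all genes). Cbr2, a carbonyl reductase, lay at 3.64 to 7.72 TPM with Xist RNA and 0.823 to 2.39 TPM with Y-linked RNA, a log2 difference of 2.05 (SE 0.33, adjusted p 0.0408). They were called beside 0.411% of all genes, and neither gene overlapped between the kinds, as Hpgd did not. What else differed between the 2 kinds was not tested.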
